A study of Mus musculus with 8 samples.

Results

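The choroid plexus genes are 10 genes that are abundant in the choroid plexus, the secretory tissue inside the brain ventricles: Ttr, Kl, Kcnj13, Aqp1, Igfbp2, Tmem72, Enpp2, Folr1, Clic6 and Otx2. Members were all non-control probes whose gene name in the scanner files equals one of these symbols, which gave 13 probes for 10 genes, out of 31399 probes and 23688 symbols on the array. All 10 passed the filter on dim probes that left 16780 genes, and 8 of the 10 were well above background in all 8 samples. Gene expression was measured on Agilent 2-colour arrays in snap-frozen cortex and hippocampus of untreated mice on a mixed 129 and C57BL6 background. The groups were Tet1 KO cortex, wild-type (WT) cortex, Tet1 KO hippocampus and WT hippocampus, with 2 samples each, numbered 1 and 2. Each of the 4 arrays held the KO and the WT sample of 1 tissue and 1 number, with KO in Cy5 and WT in Cy3 on every array. Because no dyes were swapped, a KO over WT ratio carries any dye bias of its probe, whereas samples of 1 genotype were all measured in 1 dye. The labels give neither the Tet1 allele nor the age or sex of the mice. They do not say whether samples of a group are separate animals, so the spread behind each p-value is that of these samples alone and could be technical.

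The choroid plexus is a sheet of epithelium around a core of fenestrated vessels. Its epithelial cells secrete cerebrospinal fluid, move ions, water and folate across the blood-cerebrospinal fluid barrier, and release carrier proteins and growth factor binding proteins into the ventricles. The plexus of the lateral ventricle lies against the hippocampus, and whether it stays with a dissected piece of tissue depends on the dissection, which the labels do not describe. In bulk tissue, fewer cells of a type and less RNA per cell cannot be told apart. Tet1 encodes an enzyme that oxidises 5-methylcytosine in DNA.

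The array reads each gene through probes of 60 bases, and the following 3 are shown because each is a member's probe that lies in coding sequence as far as its letters show. Read from the first base, each holds 19 open codons and then a stop codon, in capitals. The Kcnj13 probe lies at chr1:89282991-89283050 (mm9, minus strand), the Igfbp2 probe at chr1:72898677-72898736 (plus strand) and the Enpp2 probe at chr15:54670921-54670980 (minus strand), per the scanner files.
Kcnj13: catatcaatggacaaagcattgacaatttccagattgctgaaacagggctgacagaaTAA
Igfbp2: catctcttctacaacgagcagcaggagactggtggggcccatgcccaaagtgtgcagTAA
Enpp2: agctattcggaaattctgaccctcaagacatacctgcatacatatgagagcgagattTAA
The Kcnj13 and Enpp2 probes are those used for the values that follow. The Igfbp2 probe is the dimmer of its gene's pair, and its values are given beside those of the brighter probe.

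Promoter windows are shown for the transcription factor among the members and for the member with the lowest KO over WT ratio in hippocampus, since both genes varied together with the others across the 8 samples. RefSeq windows of 300 bases (GRCm38.p6, 250 before to 50 after a gene's start) matched 6 of the members other than Ttr, with 10 windows in all, 4 of them for Otx2. The 6-base motif TAATCC, the core that OTX proteins are known to bind, was searched on both strands (as TAATCC or GGATTA, with no other motif searched). It was found in 1 of the 10 windows and in 7.06% of all 32851 windows of that length. A match is a description of the letters and not a bound site. The 250 bases before the start are printed for that Otx2 window, chr14:48665110-48665359 (minus strand), with the match in capitals, and for Kcnj13, chr1:87394730-87394979 (minus strand), which held no match.
Otx2: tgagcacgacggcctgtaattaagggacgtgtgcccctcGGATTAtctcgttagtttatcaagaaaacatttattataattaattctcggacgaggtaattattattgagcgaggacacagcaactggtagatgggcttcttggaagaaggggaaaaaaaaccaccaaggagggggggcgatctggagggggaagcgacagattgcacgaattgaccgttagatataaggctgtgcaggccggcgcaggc
Kcnj13: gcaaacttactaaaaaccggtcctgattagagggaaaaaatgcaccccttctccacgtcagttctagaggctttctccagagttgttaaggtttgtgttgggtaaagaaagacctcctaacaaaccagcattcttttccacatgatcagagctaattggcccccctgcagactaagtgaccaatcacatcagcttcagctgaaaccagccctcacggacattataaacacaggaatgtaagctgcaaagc

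All 10 genes had higher mean levels in KO cortex than in WT cortex and lower mean levels in KO hippocampus than in WT hippocampus, but samples of 1 group differed widely and none of the 10 passed the test in either tissue (limma adjusted p under 0.05, which 0.0596% of all genes passed in cortex and 0.0179% in hippocampus). The median log2 ratio of KO over WT over the 10 genes was 1.30 in cortex and -1.49 in hippocampus, beside 0.04 and 0.02 over all 16780 genes. In hippocampus the direction of 5 of the 10 rested on 1 array: without hippocampus 2, the ratio was above 0 for Ttr (0.82), Folr1 (0.68), Clic6 (0.15), Aqp1 (0.11) and Tmem72 (0.04). Levels are log2 fluorescence after background correction and normalisation. They compare samples for 1 probe and do not compare genes.

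**Figure D1:**
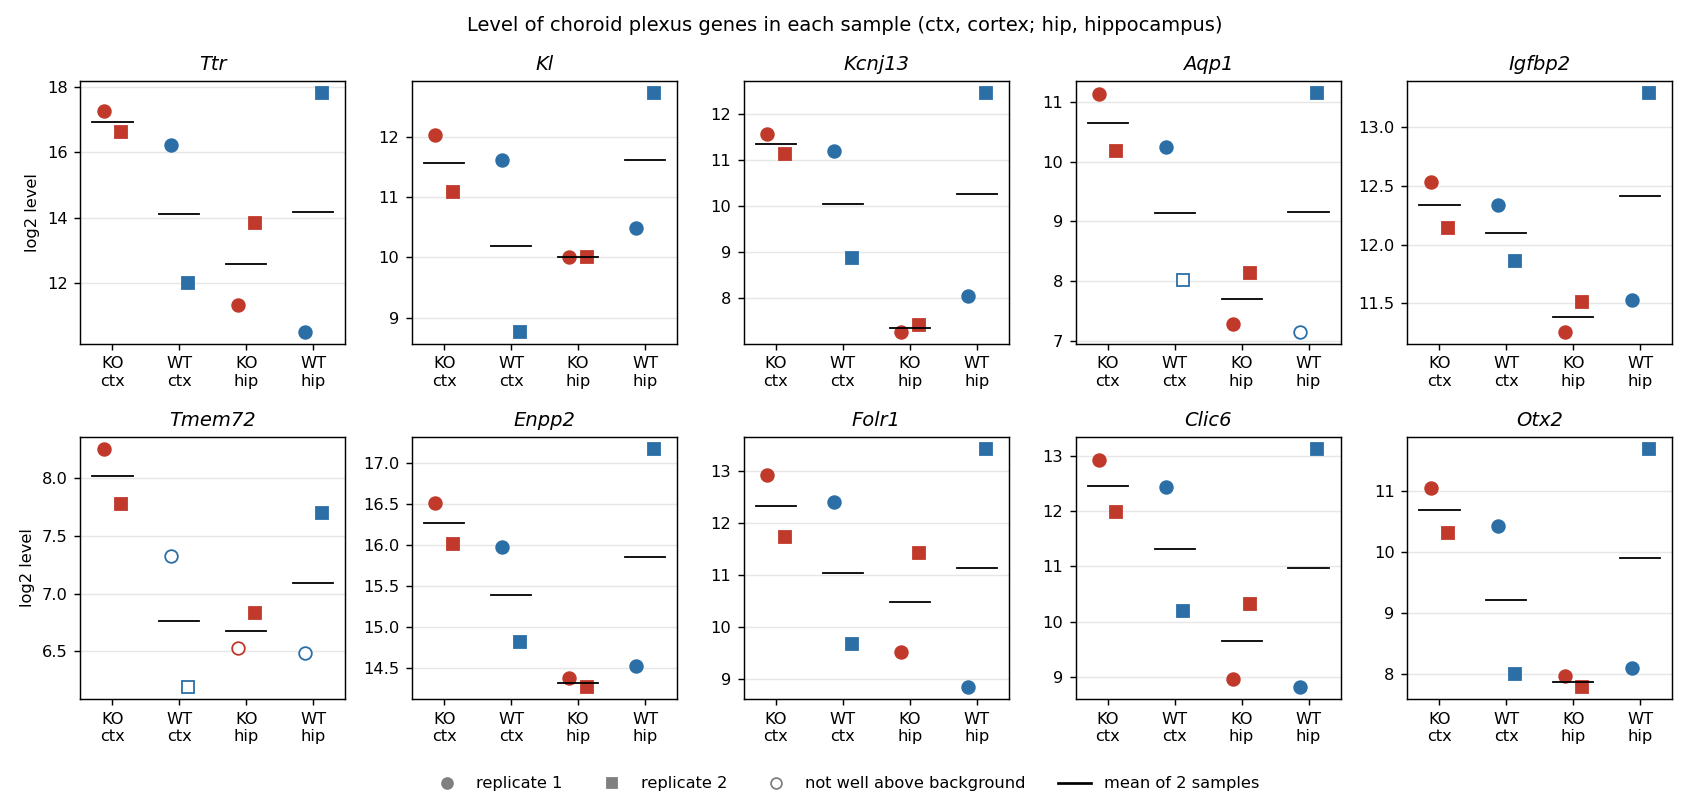
Log2 level of each of the 10 genes (vertical axes, 1 panel per gene with its own range) in the samples of KO cortex, WT cortex, KO hippocampus and WT hippocampus (ctx, cortex; hip, hippocampus), KO in red and WT in blue. Circles are replicate 1, squares replicate 2, open symbols are not well above background, and bars are means of 2 samples. WT hippocampus replicate 2 is the highest sample for 9 of the 10 genes, and KO cortex replicate 1 is the highest for Tmem72.

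Among the genes of secreted proteins, Ttr encodes transthyretin, the carrier of thyroid hormone and of retinol binding protein in cerebrospinal fluid (probe at chr18:20828519-20828577, mm9). Ttr had log2 levels of 17.27 and 16.61 in KO cortex, against 16.21 and 11.98 in WT cortex. Ttr had 11.32 and 13.83 in KO hippocampus, against 10.50 and 17.82 in WT hippocampus. The cortex groups did not overlap, with KO above WT, whereas the WT hippocampus samples lay on either side of both KO hippocampus samples. The 2 WT hippocampus samples differed by 7.32 on the log2 scale, which is 160-fold, and the 2 WT cortex samples by 4.23, which is 18.7-fold. The KO over WT difference was 2.85 ± 1.39 in cortex (limma log2 ratio ± SE, 2 arrays, adjusted p = 0.32) and -1.59 ± 1.39 in hippocampus (adjusted p = 0.525).

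Igfbp2 encodes a binding protein for insulin-like growth factors (brighter probe at chr1:72898813-72898872). Igfbp2 had 12.53 and 12.14 in KO cortex, against 12.34 and 11.86 in WT cortex. It had 11.26 and 11.51 in KO hippocampus, against 11.53 and 13.29 in WT hippocampus. Its cortex ratio was the smallest of the 10 and the groups overlapped, with a log2 ratio of 0.24 ± 0.36 (limma adjusted p = 0.732). In hippocampus both KO samples were below both WT samples, although KO hippocampus 2 (11.51) was close to WT hippocampus 1 (11.53). The log2 ratio there was -1.02 ± 0.36 (limma adjusted p = 0.191). The probe shown above gave 0.14, 0.22, -0.41 and -2.05 on the cortex 1, cortex 2, hippocampus 1 and hippocampus 2 arrays, beside 0.19, 0.28, -0.26 and -1.78 for the brighter probe.

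Enpp2 encodes autotaxin, a secreted enzyme that makes lysophosphatidic acid and is also expressed by oligodendrocytes. Enpp2 had 16.52 and 16.02 in KO cortex, against 15.98 and 14.82 in WT cortex. It had 14.38 and 14.27 in KO hippocampus, against 14.53 and 17.18 in WT hippocampus. The groups did not overlap in either tissue, with KO above WT in cortex and below it in hippocampus. The nearest samples were close, with 16.02 in KO against 15.98 in WT in cortex, and 14.38 against 14.53 in hippocampus. The log2 ratios were 0.87 ± 0.66 in cortex (limma adjusted p = 0.491) and -1.53 ± 0.66 in hippocampus (limma adjusted p = 0.25).

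Among the channels and transporters, Kcnj13 encodes the inwardly rectifying potassium channel Kir7.1, which sits in the apical membrane of the plexus epithelium. Kcnj13 had 11.57 and 11.13 in KO cortex, against 11.20 and 8.88 in WT cortex. It had 7.27 and 7.42 in KO hippocampus, against 8.05 and 12.46 in WT hippocampus. WT cortex 1 lay between the KO cortex samples, and both KO hippocampus samples lay below both WT hippocampus samples. Kcnj13 had the lowest hippocampus ratio of the 10 genes, -2.91 ± 1.08 (limma log2 ratio ± SE, adjusted p = 0.205), and 1.31 ± 1.08 in cortex (adjusted p = 0.523). The gene's other probe, at chr1:89282859-89282918, gave 0.60, 2.32, -0.43 and -4.53 on the cortex 1, cortex 2, hippocampus 1 and hippocampus 2 arrays, beside 0.36, 2.25, -0.79 and -5.03 for the probe shown above.

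Aqp1 encodes the apical water channel of the plexus epithelium (probe at chr6:55298480-55298539). Aqp1 had 11.14 and 10.17 in KO cortex, against 10.25 and 8.02 in WT cortex. It had 7.27 and 8.13 in KO hippocampus, against 7.15 and 11.15 in WT hippocampus. The groups overlapped in both tissues, and WT cortex 2 and WT hippocampus 1 were not well above background. The log2 ratios were 1.52 ± 0.79 in cortex (limma adjusted p = 0.339) and -1.45 ± 0.79 in hippocampus (limma adjusted p = 0.329).

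Clic6 encodes a member of the chloride intracellular channel family (probe at chr16:92541363-92541422). Clic6 had 12.93 and 11.98 in KO cortex, against 12.45 and 10.20 in WT cortex. It had 8.96 and 10.32 in KO hippocampus, against 8.81 and 13.14 in WT hippocampus. The groups overlapped in both tissues, with log2 ratios of 1.13 ± 0.76 in cortex (limma adjusted p = 0.442) and -1.34 ± 0.76 in hippocampus (limma adjusted p = 0.344).

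Folr1 encodes folate receptor alpha, which carries folate through the plexus epithelium (brighter probe at chr7:109006846-109006905). Folr1 had 12.92 and 11.73 in KO cortex, against 12.41 and 9.67 in WT cortex. It had 9.52 and 11.43 in KO hippocampus, against 8.84 and 13.43 in WT hippocampus. The groups overlapped in both tissues, with log2 ratios of 1.28 ± 0.72 in cortex (limma adjusted p = 0.371) and -0.66 ± 0.72 in hippocampus (limma adjusted p = 0.611). The probes of this gene disagreed in KO hippocampus: replicate 2 exceeded replicate 1 by 1.91 on the log2 scale with the brighter probe and by 0.08 with the dimmer one, at chr7:109016972-109017031, which was well above background in all KO samples. In WT hippocampus the same difference was 4.59 with the brighter probe and 2.51 with the dimmer one, whose WT hippocampus 1 value was not well above background.

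Kl encodes klotho, a co-receptor for an endocrine fibroblast growth factor, whose shed form enters cerebrospinal fluid (probe at chr5:151795712-151795771). Kl had 12.03 and 11.09 in KO cortex, against 11.61 and 8.77 in WT cortex. It had 10 and 10 in KO hippocampus, against 10.49 and 12.73 in WT hippocampus. The KO hippocampus samples were alike and both below WT, while the cortex groups overlapped. The log2 ratios were 1.37 ± 0.69 in cortex (limma adjusted p = 0.328) and -1.61 ± 0.69 in hippocampus (limma adjusted p = 0.244).

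Tmem72 encodes a transmembrane protein whose role is not well described (probe at chr6:116642756-116642815). Tmem72 had 8.26 and 7.78 in KO cortex, against 7.33 and 6.19 in WT cortex, where neither sample was well above background. It had 6.53 and 6.83 in KO hippocampus, against 6.49 and 7.70 in WT hippocampus, and in each of these groups only replicate 2 was well above background. The mean of 8.02 in KO cortex was 1.41-fold above the mean of the lowest levels well above background in WT cortex (7.49 and 7.55). The measured mean in WT cortex was 6.76. The 1.41-fold is not a minimum, because a level above the lowest one can still be not well above background. In KO hippocampus 1, Tmem72 at 6.53 was such a level, beside a lowest level of 6.38. The fold is also open to dye bias and to the background correction. The fitted cortex log2 ratio of Tmem72 was 0.20 with outlying local backgrounds kept and 0.18 with the scanner software's processed signals. Both are under 0.50, the log2 of that fold. Processed signals under 50 had been set to 50, which can shrink the ratio of a dim gene. With the correction used here, the fitted log2 ratio was 1.26 ± 0.27 in cortex, with the lowest adjusted p of the 10 genes there (limma adjusted p = 0.125), and -0.41 ± 0.27 in hippocampus (limma adjusted p = 0.4).

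Otx2 encodes a homeodomain transcription factor that the plexus epithelium needs and also secretes (probe at chr14:49277855-49277914, mm9). Otx2 had 11.05 and 10.32 in KO cortex, against 10.43 and 8.0 in WT cortex. It had 7.97 and 7.79 in KO hippocampus, against 8.10 and 11.70 in WT hippocampus. KO hippocampus lay below WT hippocampus without overlap, although WT hippocampus 1 was close to both KO samples. The log2 ratios were 1.47 ± 0.97 in cortex (limma adjusted p = 0.431) and -2.02 ± 0.97 in hippocampus (limma adjusted p = 0.284).

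By group means, KO cortex was highest for 8 of the 10 genes and WT hippocampus for Kl and Igfbp2, and KO hippocampus was lowest for all 10. Samples of KO cortex and WT cortex overlapped for 7 of 10 genes (44.2% of all genes), of KO hippocampus and WT hippocampus for 5 (49% of all genes), and of WT cortex and WT hippocampus for 10 (44.1% of all genes). Across dyes and tissues, KO cortex overlapped with WT hippocampus for 9 genes, all but Tmem72 (35.1% of all genes), and WT cortex with KO hippocampus for 6 (31.2% of all genes). KO cortex and KO hippocampus, which share a dye, overlapped for none (39.9% of all genes), with KO cortex above for all 10. Over all genes, both KO cortex samples lay above both KO hippocampus samples for 28.8%. The genes whose KO cortex samples both lay above WT cortex were Ttr, Tmem72 and Enpp2, 3 of 10 beside 33.5% of all genes. Those whose KO hippocampus samples both lay below WT hippocampus were Kl, Kcnj13, Igfbp2, Enpp2 and Otx2, 5 of 10 beside 21.1% of all genes.

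The KO over WT ratios differed between the 2 arrays of a tissue. On the cortex 1 array the 10 ratios ran from 0.19 to 1.06 with a median of 0.53, and on the cortex 2 array from 0.28 to 4.63 with a median of 2.11. On the hippocampus 1 array they ran from -0.79 to 0.82 with a median of -0.04, with 5 genes above 0 and 5 below. On the hippocampus 2 array they ran from -5.03 to -0.87 with a median of -2.87. For comparison, the 1st and 99th percentiles of all genes were -0.65 and 0.92 on cortex 2 and -1.16 and 0.79 on hippocampus 2. On cortex 2 the WT sample was low beside WT cortex 1, and on hippocampus 2 the WT sample was high beside WT hippocampus 1.

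**Figure D2:**
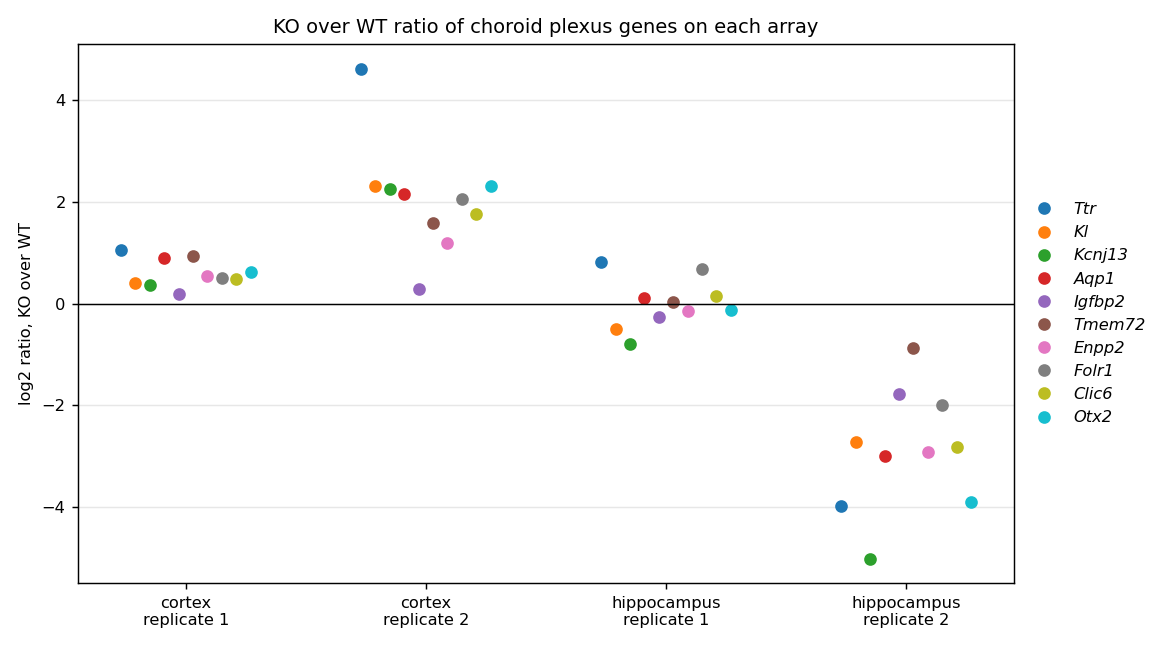
Log2 ratio of KO over WT for each of the 10 genes (points, coloured by gene) on each of the 4 arrays, with a line at 0. The ratios are above 0 for 10 of 10 genes on both cortex arrays, on either side of 0 on the hippocampus 1 array and below 0 for 10 of 10 on the hippocampus 2 array.

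Both cortex arrays gave a ratio above 0 for 10 of 10 genes, beside 43.5% of all genes, and both hippocampus arrays a ratio below 0 for 5 of 10, beside 28.2% of all genes. Kl, Kcnj13, Igfbp2, Enpp2 and Otx2 were above 0 on both cortex arrays and below 0 on both hippocampus arrays, 5 of 10 beside 3.28% of all genes. The difference between the tissues was itself tested. Its median over the 10 genes was 2.72, and it ranged between 1.26 for Igfbp2 and 4.43 for Ttr, with a limma adjusted p of 1 for each of the 10.

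Across the 6 comparisons of the design, limma called 0 of the 10 genes at an adjusted p under 0.05. For KO over WT in cortex it called 0.0596% of all 16780 genes, and 1 of the 10 members (Tmem72) had an unadjusted p under 0.05, as did 3548 of all genes. In hippocampus it called 0.0179%, and 2 members (Kcnj13 and Igfbp2) had an unadjusted p under 0.05, as did 3977 of all genes. For the mean of both tissues it called 10.9%, with no member at an unadjusted p under 0.05 and a member median of -0.11. For the difference between tissues it called 0%, with 4 members at an unadjusted p under 0.05 (Kl, Kcnj13, Aqp1 and Tmem72) beside 750 of all genes. With 2 arrays per tissue, the test had 2 residual degrees of freedom.

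Cortex was compared with hippocampus within each genotype, where the dye is the same. In KO, all 10 genes were higher in cortex, with a median log2 difference of 2.38 and adjusted p between 0.102 for Kcnj13 and 0.484 for Folr1 in limma's separate-channel fit. Kcnj13 differed by 4.0 ± 1.35 and Ttr by 4.37 ± 2.30 (log2 difference ± SE), and Igfbp2 by 0.95 ± 0.50. Of all genes, 14.8% were called in this comparison, and 4 of the 10 members had an unadjusted p under 0.05 (Kcnj13, Aqp1, Tmem72 and Enpp2), beside 28.3% of all genes. In WT, 9 of the 10 genes had lower means in cortex (all but Clic6), with a median of -0.26 and adjusted p of at least 0.401 in the same fit. There 14.9% of all genes were called, and no member had an unadjusted p under 0.05, beside 28.9% of all genes.

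Ttr had the widest range of the 10 within each dye. Over the 4 KO samples, levels of Ttr spanned 61.9-fold, of Kcnj13 19.7-fold, of Clic6 15.7-fold and of Aqp1 14.7-fold. Over the 4 WT samples, Ttr spanned 160-fold, Folr1 24.1-fold, Kcnj13 21.1-fold and Clic6 20.2-fold. In the order of all 16780 genes by this range, Ttr stood 2nd in KO and 2nd in WT, and the members' lowest places were 578th in KO (Igfbp2, 2.4-fold) and 255th in WT (Igfbp2, 3.4-fold). Tmem72 is left out of the WT order because 1 of its 4 WT samples was well above background. These folds are levels of 1 probe compared between samples of 1 dye.

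The difference between the 2 samples of a group was of 3 kinds. In cortex, replicate 1 was above replicate 2 for 10 of 10 genes in KO (median 0.70, between 0.38 for Igfbp2 and 1.19 for Folr1) and in WT (median 2.28, between 0.48 and 4.23). In WT hippocampus, replicate 2 was above replicate 1 for 10 of 10 genes, with a median of 3.80. In KO hippocampus the genes did not move in 1 ratio. There replicate 2 exceeded replicate 1 by 2.51 for Ttr, 1.91 for Folr1, 1.36 for Clic6 and 0.87 for Aqp1, while the other 6 genes differed by at most 0.30 on the log2 scale, among them Otx2 with -0.18 and Kl with 0.01. The same 4 genes were the members above 0 on the hippocampus 1 array other than Tmem72. The median of all genes was 0 for each of these differences.

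**Figure D3:**
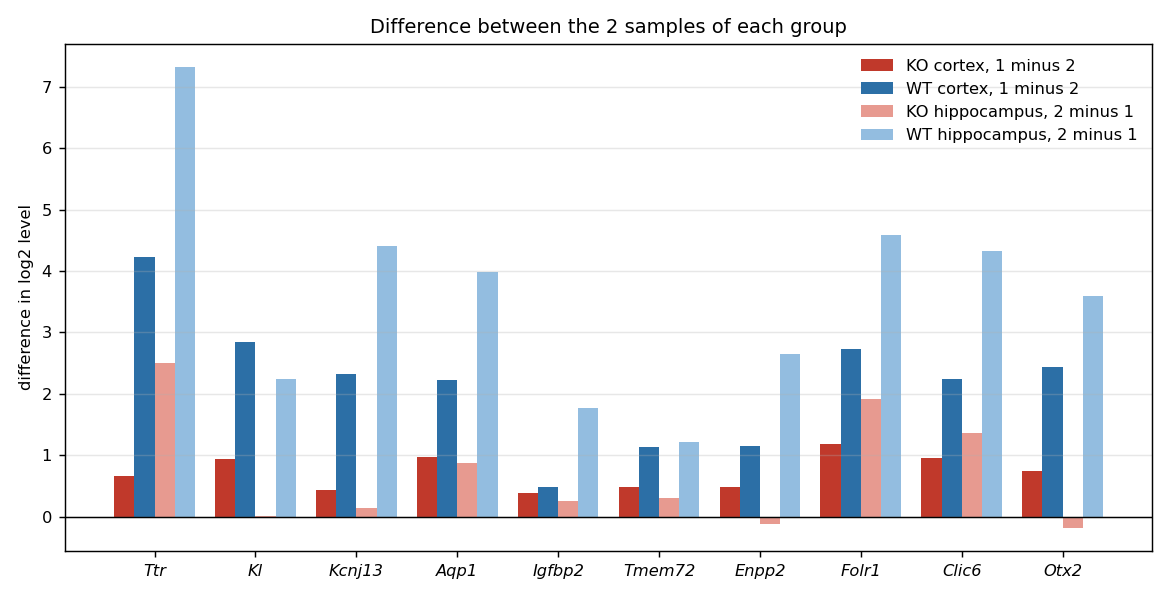
Difference in log2 level between the 2 samples of each group for each of the 10 genes (bars from 0): replicate 1 minus 2 in KO cortex and WT cortex, and replicate 2 minus 1 in KO hippocampus and WT hippocampus. WT hippocampus shows the tallest bar for 9 of the 10 genes, with Ttr at 7.32, and KO hippocampus has bars above 0.30 for Ttr, Folr1, Clic6 and Aqp1 alone.

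The 10 genes varied together over the 8 samples. The mean of their levels, centred gene by gene, was 1.56 and 0.84 in KO cortex, against 0.96 and -1.22 in WT cortex, and -1.61 and -0.91 in KO hippocampus, against -1.61 and 2.0 in WT hippocampus. Each member's Pearson r with the mean of the other 9 was between 0.861 (Kl) and 0.993 (Aqp1) over the 8 samples, which form 4 arrays. The order across genotypes includes any dye bias, and r is given as a description.

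Outside the 10, the genes whose levels were most like this mean were Wfdc2 (r = 0.997 over 8 samples), Steap1, Tuba1c, Cab39l, Rbm47, Slc4a5, Cldn2, Wdr86, Kcne2 and Rdh5, the last 2 with r = 0.982. Wfdc2, which encodes a secreted whey acidic protein domain protein, had 10.76 and 9.83 in KO cortex, against 10 and 7.69 in WT cortex. It had 7.47 and 8.22 in KO hippocampus, against 7.10 and 11.24 in WT hippocampus. Steap1, Cab39l, Slc4a5, Cldn2, Kcne2 and Rdh5 were among 26 other choroid plexus genes listed for this work. Of 16770 genes outside the members, 98 had r of at least 0.9. Of the 102 genes with a mean hippocampus ratio of -1 or lower, 20 had such an r, as had 15 of the 41 genes with a mean cortex ratio of 1 or higher.

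The 26 other choroid plexus genes, among them ion transporters, keratins, claudins and collagens of the plexus, all passed the filter. Their mean level had r = 0.989 with that of the 10 over the 8 samples. Of these, 26 had a mean ratio above 0 in cortex (median 0.81) and 25 below 0 in hippocampus (median -0.87), with none called by limma in either tissue. Kcne2, a potassium channel subunit, had 11.27 and 10.40 in KO cortex, against 10.36 and 7.46 in WT cortex. It had 7.12 and 7.01 in KO hippocampus, against 6.36 and 11.25 in WT hippocampus, with WT cortex 2 and WT hippocampus 1 not well above background. Steap1, 1500015O10Rik and F5, the next by range, had log2 ratios of -3.79, -4.00 and -2.76 on the hippocampus 2 array and of 0.37, 0.03 and 1.15 on the hippocampus 1 array, where Steap1 and F5 were not well above background in WT.

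Calls within that list fell in the other comparisons. Slc13a4, a sulfate transporter gene, was lower in KO in the mean of both tissues, by -0.85 ± 0.16 (limma log2 ratio ± SE, adjusted p = 0.0442). It was 1 of the 26, beside 3.77% of all genes called lower there. It was also the gene of the 26 with a ratio below -1 on both hippocampus arrays (-1.64 and -2.55). In KO, Slc13a4 and Wfikkn2 were higher in cortex than in hippocampus (2.20 ± 0.57, adjusted p = 0.0445, and 1.51 ± 0.32, adjusted p = 0.0216, limma separate-channel fit). These were 2 of the 26, beside 7.62% of all genes called higher there. In WT, Slc29a4 was lower in cortex than in hippocampus (-1.51 ± 0.27, adjusted p = 0.0109 in the same fit). It was 1 of the 26, beside 7.66% of all genes called lower there. The Slc13a4 call in the mean of both tissues was lost in limma with outlying local backgrounds kept (adjusted p = 0.122), with the processed signals (0.173), with median centring (0.232) and without any 1 array (0.072 to 0.173). Between tissues, the processed signals called 0.344% of all genes in KO and 0.302% in WT. There the log2 difference was 2.24 for Slc13a4 and 1.17 for Wfikkn2 in KO and -1.65 for Slc29a4 in WT. With these signals none of the 3 genes was called between tissues (adjusted p = 1 for each in limma). Without cortex replicate 2 none was called either (limma adjusted p of 0.219 for Slc13a4, 0.0968 for Wfikkn2 and 0.0756 for Slc29a4). Without cortex replicate 1 the adjusted p was 0.283 for Slc13a4 and 0.218 for Wfikkn2, and without hippocampus replicate 2 it was 0.0829 for Slc29a4 (limma). Wfikkn2 was not called with outlying local backgrounds kept (0.0593), nor Slc13a4 between KO tissues with no filter on dim probes (0.0529), no replicate block (0.0555) or an intensity trend (0.102, limma adjusted p for each). These 3 genes are named because they were called, after their values were seen. In KO hippocampus, replicate 2 exceeded replicate 1 by more than 1 on the log2 scale for 1 of the 26 (Slc13a4, 1.03), and the median difference was -0.04, beside 0.27 for the 10 members.

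**Figure D4:**
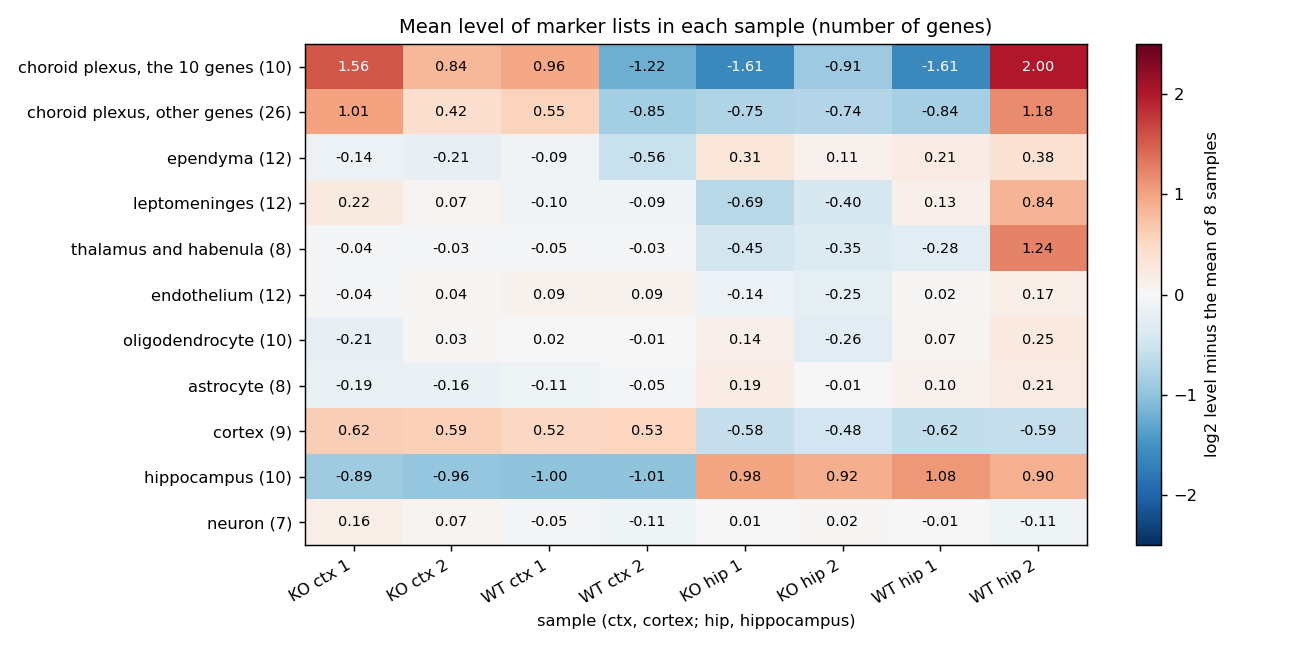
Mean log2 level of each marker list minus its mean over the 8 samples (colour and printed value), for the lists in rows (number of genes past the filter in brackets) and the samples in columns (ctx, cortex; hip, hippocampus). The choroid plexus rows are high in both KO cortex samples, WT cortex 1 and WT hippocampus 2, and the rows of cortex and hippocampus genes divide the samples by tissue.

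Marker lists of neighbouring tissue and of other cell types were read in the same samples. The labelled tissues were read against their own markers, from lists chosen with earlier results of these data known. Between tissues, 7.62% of all genes were called higher and 7.19% lower in cortex in KO, and 7.26% and 7.66% in WT. The separate-channel fit of limma called 7 of 9 cortex genes higher and 8 of 10 hippocampus genes lower in cortex than in hippocampus in each genotype, with 2 and 1 cortex genes called the other way in KO and WT and 1 hippocampus gene in KO. Among them were Cux2, with 2.0 ± 0.13 in KO and 1.82 ± 0.13 in WT, and Spink8, with -4.09 ± 0.31 in both. The mean level of the hippocampus list was 11.43 and 11.37 in KO hippocampus, against 11.53 and 11.35 in WT hippocampus. WT hippocampus 2, the highest sample for 9 choroid plexus genes, was close to the other hippocampus samples in these genes.

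Leptomeningeal genes, from the membranes that cover the brain, followed the choroid plexus genes in part (12 of 12 genes past the filter, r = 0.709 over 8 samples). Their mean level was 10.41 and 10.26 in KO cortex, against 10.09 and 10.10 in WT cortex. It was 9.50 and 9.79 in KO hippocampus, against 10.32 and 11.03 in WT hippocampus. Unlike the choroid plexus genes, they were low on both hippocampus arrays, with median ratios of -0.94 and -1.52. Col1a2 had -1.33 and -2.04 and Slc6a13 -1.57 and -1.85 on the hippocampus 1 and 2 arrays. Dcn, a small proteoglycan of connective tissue, had -0.52 and 0.28 on these arrays and so lay above 0 on the second. Between KO tissues, which share a dye, the separate-channel fit called 8 of the 12 higher in cortex and 1 lower. Of all genes, 7.62% and 7.19% were called so. In WT it called 0 higher and 2 lower, beside 7.26% and 7.66% of all genes. With the processed signals, none of the 12 was called between tissues. In the mean of both tissues, limma called 6 of the 12 lower in KO (adjusted p under 0.05), beside 3.77% of all genes called lower. None was called in hippocampus alone. None of the 12 was called in that mean with outlying local backgrounds kept (lowest adjusted p = 0.0964 in limma), with the processed signals (0.0812) or without any 1 of the 4 arrays (0.072 to 0.131), and with median centring 3 were called lower and 3 higher.

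Genes of thalamus and habenula (8 of 10 past the filter, r = 0.705 with the choroid plexus genes over 8 samples) were highest in WT hippocampus 2 (Gbx2 and Plekhg1 did not pass). Their mean level was 10.19 and 10.29 in KO hippocampus, against 10.36 and 11.88 in WT hippocampus. It was 10.60 and 10.61 in KO cortex, against 10.59 and 10.61 in WT cortex, where the choroid plexus genes differed between samples. Prkcd, a protein kinase C gene of thalamic relay neurons, had 11.43 and 10.90 in KO hippocampus, against 11.50 and 13.39 in WT hippocampus. The part of carried-along neighbouring tissue in the choroid plexus values was not tested.

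Markers of ependyma, the ciliated cells that line the ventricles, had another profile over the samples (12 of 12 past the filter, r = 0.01). Their mean level was 9.56 and 9.49 in KO cortex, against 9.61 and 9.14 in WT cortex. It was 10.01 and 9.81 in KO hippocampus, against 9.91 and 10.08 in WT hippocampus. In KO, 4 of the 12 were called lower in cortex than in hippocampus, beside 7.19% of all genes. In WT it was 5 of the 12, beside 7.66%, and none was called higher in either genotype. Among those called in both genotypes were Fam183b and Tmem212 (limma separate-channel fit, adjusted p between 0.00019 and 0.0441). Ak7 went the other way, uncalled (0.48 in KO and 0.56 in WT), and was well above background in 5 of the 8 samples.

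Mean levels of endothelial, oligodendrocyte, astrocyte and neuronal genes spanned at most 0.40 on the log2 scale over the samples of either dye, beside 3.17 in KO and 3.61 in WT for the 10 choroid plexus genes. Single genes could differ more than their list. Gfap, 1 of 8 astrocyte genes, was lower in cortex than in hippocampus (-1.47 ± 0.22 in KO and -1.51 ± 0.22 in WT, called in both). Aldh1l1 of the same list was called higher in cortex in KO (0.38 ± 0.08). Between tissues, 14.8% of all genes were called in KO and 14.9% in WT. For oligodendrocytes, which also express Enpp2, the mean level was 13.27 and 12.87 in KO hippocampus, against 13.20 and 13.38 in WT hippocampus. The median ratio of the 10 oligodendrocyte genes was 0.08 on the hippocampus 1 array and -0.66 on the hippocampus 2 array, where Enpp2 had -0.15 and -2.92. On the hippocampus 2 array Mal had -0.95 and Mbp 0.78, both myelin genes among the 4 of the list with the widest range.

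All 4 arrays lay on 1 slide. The share of spots well above background was 66.6% to 67.2% in the KO (Cy5) channel and 49.7% to 51.7% in the WT (Cy3) channel, and no spot was saturated. KO cortex 1 had 166 spots with an outlying local background, beside 36 to 53 in the other KO samples and 6 to 37 in the WT samples. The number of arrays limits the precision. The brightest Tet1 probe gave log2 ratios of -0.18 and -0.20 in cortex and -0.23 and -0.10 in hippocampus (limma adjusted p = 0.225 and 0.234). The next Tet1 probe gave -0.30 and -0.18 in cortex and -0.22 and -0.18 in hippocampus. The dimmest went the other way, with 0.22 and 0.20 in cortex and 0.15 and 0.26 in hippocampus. It was well above background in 4 of the 8 samples. The position of the Tet1 deletion is not given in the sources used here, so these values do not check the genotype labels.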

How the data were processed

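RNA from 8 tissue samples was measured on 4 Agilent 2-colour arrays. Per the file headers, Feature Extraction (version 10.1.1.1) made the deposited scanner intensities, and probe positions are those of mm9. The files of the 2 samples of an array were identical in all 4 pairs. The deposited value table holds log2 values made by the authors. Its background correction and centring stay unknown. Its columns had medians between 8.21 and 8.25, and its log ratios had r between 0.938 and 0.956 with those used here, in the direction KO over WT. The submitters' processing notes name limma.

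Signals were corrected with normexp (offset 50), with the background of spots that the files mark as outlying set to the array median. They were normalised by loess (span 0.3, control spots at weight 0) within arrays and by Aquantile between arrays for levels. Outlying spots were left out and spots of a probe averaged. The probe with the highest mean signal stood for its gene, which was kept if well above background in both samples of at least 1 of 4 groups. A level not well above background in a whole group is uncertain.

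KO over WT was fitted with limma 3.58.1 in R 4.3.3 (lmFit and eBayes on 4 log ratios, 1 mean per tissue, 2 residual and 2.62 prior degrees of freedom). Tissues were compared within genotype by lmscFit (intraspot correlation 0.189). P-values were adjusted by Benjamini-Hochberg over all 16780 genes, with a threshold of 0.05. The fit was tested on simulated data. Alternatives were another background treatment, Feature Extraction's processed signals (raised to 50 where lower), median centring and the deposited table. Others were other filters and probe rules, a trended prior, fits with and without blocks, and leaving out each array (with the intraspot correlation of all arrays). The members and the marker lists were chosen with earlier results of these data known. Genes named were all 10 members, up to 4 genes per other list with the largest range of level, and the 10 genes with the highest r with the members' mean. Any others are named in the text as chosen later.

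KO and WT samples of 1 number share an array, and so a pair. Nothing in the labels says that a number is shared between tissues: deviations of replicate 1 from the group mean had r of 0.24 between KO cortex and KO hippocampus and -0.08 between WT cortex and WT hippocampus.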

Additional observations from a re-analysis of the deposited data

Results flagged for a closer look

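For 5 of the 10 genes both KO samples of cortex exceeded their WT partners on the array while both KO samples of hippocampus lay below theirs. The KO over WT difference between cortex and hippocampus was 2.98 for Kl, 4.22 for Kcnj13, 1.26 for Igfbp2, 2.41 for Enpp2 and 3.49 for Otx2 on the log2 scale. The difference itself was tested, and none of these passed (limma adjusted p = 1 for each). On the hippocampus 1 array these genes had ratios between -0.79 and -0.13, and on the hippocampus 2 array between -5.03 and -1.78.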

How the results depend on the processing

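None of the 10 genes was called in limma under 74 of 81 combinations of a comparison with an alternative. Several of these combinations could call few genes, so the count is no measure of robustness. With all 4 arrays kept, the difference between tissues called 0% of all genes in every setting but median centring. With the processed signals, KO over WT called 0.0121% of all genes in cortex and 0% in hippocampus. Leaving out an array left 1 array in its tissue. With median centring in place of loess, 10 were called in cortex and 5 in hippocampus, and 2 each in the mean of the tissues, in their difference and between KO tissues. Under that setting the median of all genes was 0.54 in cortex and 0.53 in hippocampus, and 81.8% and 79.6% of all genes were called, 12.5% of all genes being called lower in hippocampus. Of all genes, 86.3% were called in the mean of the tissues, 0.679% in their difference and 17.3% between KO tissues. With the values the authors deposited, 1 of the 10 members was called between KO tissues, beside 17.1% of all genes. That member was Tmem72 (1.09, limma adjusted p = 0.038). The remaining combination was that of WT tissues without hippocampus replicate 1, which left 1 WT hippocampus sample.

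The members' median kept its sign in cortex (0.53 to 2.11 on leaving out an array), hippocampus (-2.87 to -0.04), their difference (1.31 to 4.02) and KO cortex over KO hippocampus (2.02 to 2.81), and likewise under the other alternatives. It did not in the mean of both tissues (-0.76 to 0.65) or between WT tissues (-2.20 to 1.55), where the sign changed with the array left out and, for the mean of both tissues, also with median centring (0.39). In hippocampus, leaving out an array gave ratios of -3.99 to 0.82 for Ttr, -2.0 to 0.68 for Folr1, -2.83 to 0.15 for Clic6, -3.01 to 0.11 for Aqp1 and -0.87 to 0.04 for Tmem72, the value above 0 being in each case that without hippocampus replicate 2. Igfbp2 had -0.01 in cortex with outlying backgrounds kept, and the cause was not tested. Tmem72 had 0 in hippocampus with the processed signals, where signals under 50 were set to 50. Signals at that floor in both samples of an array give a ratio of 0. Whether those of Tmem72 lay there was not tested. Of 532 values of single genes in cortex, hippocampus, the difference and KO tissues, 505 kept their sign and stayed uncalled.

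With the replicate block, the 10 genes had a limma adjusted p of at least 0.713 in the difference, 0.127 between KO tissues and 0.43 between WT tissues. None was called, beside 0%, 14.6% and 15.1% of all genes in these comparisons. With no replicate block (array left out of the fit), 0 of the 10 were called as well, beside 293 of all genes in cortex and 451 in hippocampus, against 10 and 3 with the array. Among the WT samples, all in Cy3, Tmem72 was well above background only in hippocampus 2. Among the KO samples, all in Cy5, it was not so in hippocampus 1. Since dye and genotype coincide, a dim dye and a low WT level cannot be told apart.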
